A study of Mus musculus with 5 samples.

Results

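Toll-like receptors, the NF-kB transcription factors they activate and the chemokines these switch on were followed as 1 module of 47 genes in cells sorted from precancerous mammary lesions of mice. The members were chosen by name from the known pathway, with no cutoff on their values but with earlier results of these data known. All 47 were among the 24347 gene symbols of the deposited tables. They comprised 16 receptors, adaptors and kinases, 16 genes of the NF-kB module and 15 outputs. The cells of interest were positive for keratin 6a (Krt6a+), which the labels call precancerous stem cells, with 2 libraries, numbered 2 and 3. They were set against WAP+ cells, named for whey acidic protein, a milk protein of differentiated mammary cells, with 3 libraries, numbered 1 to 3. All 5 libraries came from MMTV-Wnt-1 transgenic mice, in which the MMTV LTR drives a Wnt-1 transgene in the mammary epithelium, on a background that mixes FVB, SJL and C57BL/6. The comparison is the one the series was designed for, Krt6a+ against WAP+ cells, and no library without the transgene was analysed here. Each library is 1 small pool of sorted cells, its cDNA amplified before sequencing, and cells were sorted with an antibody to TVA, the receptor of an avian virus. The labels give neither the age of the mice at sorting nor how TVA marked each population, and they do not tie the pools to individual mice, so p-values measure only the spread between these pools, which may be technical.

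Toll-like receptors are membrane proteins that recognise microbial molecules and pass the signal through adaptors such as MyD88 to kinases of the IRAK family and to the ubiquitin ligase TRAF6. The kinase TAK1 (Map3k7) then activates the IKK complex, which marks the inhibitory IkB proteins for destruction and frees NF-kB dimers to enter the nucleus. NF-kB switches on chemokines and adhesion molecules, and also its own inhibitors IkB-alpha (Nfkbia) and A20 (Tnfaip3), which end the response. In mammary epithelium this pathway is known from mastitis, in which luminal cells that sense bacteria recruit neutrophils.

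The sequence shared by many of these genes is the NF-kB binding site. Promoter windows are shown for the inhibitors Nfkbia and Tnfaip3 and the chemokines Cxcl1 and Cxcl2, all of which hold a match to it. None of these genes passed the test. The window of Myd88, the member that passed the test, is shown beside them. Windows were 300 bases from RefSeq on GRCm38.p6, with 250 before and 50 after the annotated start, and capitals mark matches to the NF-kB consensus on either strand. They are read 5′ to 3′ along the gene. Nfkbia lies on the minus strand (window at chr12:55492598-55492897), as do Tnfaip3 (chr10:19015361-19015660) and Myd88 (chr9:119339969-119340268). Cxcl1 (chr5:90890995-90891294) and Cxcl2 (chr5:90903649-90903948) lie on the plus strand.
Nfkbia: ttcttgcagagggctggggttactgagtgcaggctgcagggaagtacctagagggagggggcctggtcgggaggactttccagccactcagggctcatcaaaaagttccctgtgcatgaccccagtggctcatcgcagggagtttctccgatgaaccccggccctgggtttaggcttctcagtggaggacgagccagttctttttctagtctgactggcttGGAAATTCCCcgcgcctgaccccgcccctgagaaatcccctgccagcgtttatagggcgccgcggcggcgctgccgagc
Tnfaip3: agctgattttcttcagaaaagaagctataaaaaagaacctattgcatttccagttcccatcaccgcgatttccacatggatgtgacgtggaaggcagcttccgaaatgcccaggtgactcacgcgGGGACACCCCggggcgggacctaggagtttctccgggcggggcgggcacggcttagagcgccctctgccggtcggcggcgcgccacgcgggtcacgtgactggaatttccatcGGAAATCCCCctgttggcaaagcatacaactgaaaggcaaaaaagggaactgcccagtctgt
Cxcl1: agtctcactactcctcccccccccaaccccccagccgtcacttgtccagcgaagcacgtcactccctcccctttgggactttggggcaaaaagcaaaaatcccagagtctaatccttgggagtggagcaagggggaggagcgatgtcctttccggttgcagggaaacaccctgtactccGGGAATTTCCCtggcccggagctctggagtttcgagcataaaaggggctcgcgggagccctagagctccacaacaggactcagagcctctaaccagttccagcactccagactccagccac
Cxcl2: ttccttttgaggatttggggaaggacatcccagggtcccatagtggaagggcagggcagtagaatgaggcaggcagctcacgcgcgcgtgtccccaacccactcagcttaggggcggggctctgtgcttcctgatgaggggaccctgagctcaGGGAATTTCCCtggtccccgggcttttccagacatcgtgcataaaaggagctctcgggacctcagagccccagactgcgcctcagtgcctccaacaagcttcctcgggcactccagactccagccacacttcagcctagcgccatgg
Myd88: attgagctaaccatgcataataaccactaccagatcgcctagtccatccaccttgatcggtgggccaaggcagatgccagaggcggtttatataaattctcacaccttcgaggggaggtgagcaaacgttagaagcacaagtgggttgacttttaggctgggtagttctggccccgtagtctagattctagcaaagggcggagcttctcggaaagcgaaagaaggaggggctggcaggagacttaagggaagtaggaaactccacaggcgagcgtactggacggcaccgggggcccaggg

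A window was found for 38 of the 47 members, and 15 of these genes (39.5%) held a match, against 1388 of all 27025 genes with a window (5.14%). By role, 7 of 12 NF-kB module genes, 5 of 11 outputs and 3 of 15 receptors and adaptors held one. Cxcl1, Cxcl2 and Cxcl3 carried the same 11-base run GGGAATTTCCC, in which matches on the 2 strands overlap, starting 71, 97 and 73 bases before the start. Nfkbia had 1 match starting 29 bases before its start, and Tnfaip3 had 2, starting 125 and 12 bases before it. A second annotated start of Tnfaip3 had a window with no match. The deposited estimates placed all Tnfaip3 signal of the 3 WAP+ pools, and 64.01% of that of Krt6a+ library 2, on NM_001166402, the transcript of that second start. NM_009397, the transcript of the window shown, held all of it in Krt6a+ library 3. The window of Myd88 held none, which says only that these letters are not in it, and its annotated start lies 22 bases from that of the deposited transcript.

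Expression was given by the authors as FPKM, fragments scaled for transcript length and for mapped fragments, and transcripts of a symbol were summed. The libraries held 8112 to 8900 genes at FPKM 1 or more. The widths of the FPKM intervals, read as counting error, correspond to about 4560000 to 6780000 fragments per library. Krt6a had FPKM 1380.2 and 1133 in Krt6a+ pools, against 168, 50.01 and 120.3 in WAP+ pools, and Wap was listed at 0 in both Krt6a+ pools against 50.1, 126 and 13.9 in WAP+ pools, so the sorted genes follow the labels. Across tested genes Spearman's rho was 0.697 between the Krt6a+ pools, 0.756 to 0.765 between WAP+ pools and 0.605 to 0.683 between the populations, so the Krt6a+ pools were less alike than the WAP+ pools. An exact 0 can be a failed estimate: Gapdh was listed at 0 in 3 libraries and Eno1, Rpl10 and Rpl11 in all 5, although every cell uses them.

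Of the 47 members, 37 had FPKM 1 or more in at least 2 libraries and were tested, 5 were listed at 0 in all libraries (Tlr1, Tlr6, Ticam1, Cxcl10 and Cxcl15) and 5 were above 0 but too low to test (Tlr3, Irak4, Cxcl3, Cxcl5 and Ccl28). The median log2 difference, Krt6a+ minus WAP+, was 0.54 over the 37 tested members and -0.01 over all 9682 tested genes. It was 0.27 for the 11 receptors, adaptors and kinases, 0.71 for the 16 NF-kB module genes and -0.10 for the 10 outputs. The difference was positive for 26 members and negative for 11, against 49.8% positive and 50.2% negative over all tested genes. After scaling, in 13 members both Krt6a+ pools lay above all WAP+ pools, against 17.4% of all tested genes, and in 2 members, Irak3 and Nfkb1, they lay below, also against 17.4% (34.8% in either direction). One member passed the test over all genes, Myd88, which was higher (limma with Benjamini-Hochberg adjustment over all tested genes, threshold 0.05), against 0.258% of tested genes called higher and 0.434% called lower (0.692% in either direction). At an unadjusted p under 0.05, 9 members were higher and 1 lower, against 7.66% and 9.45% of tested genes (17.1% in either direction). All log2 differences are of log2(scaled FPKM + 1), which understates changes of low genes.

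**Figure D1:**
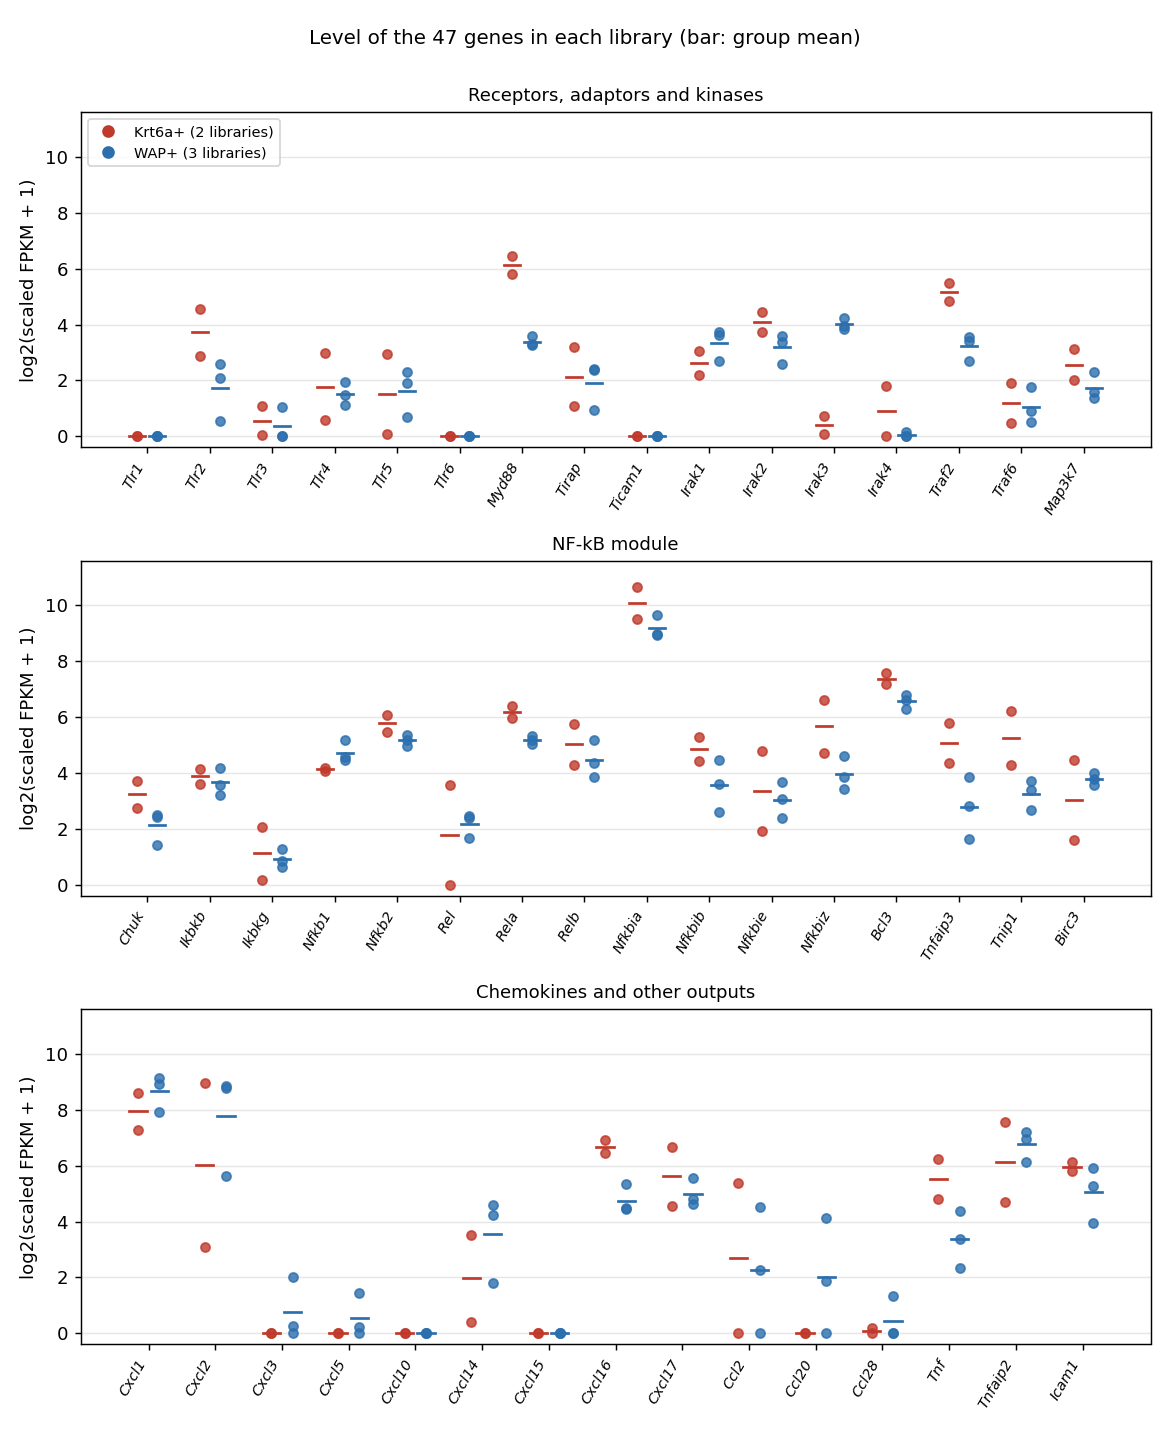
Level of each of the 47 genes as log2(scaled FPKM + 1) on the vertical axis, with 1 point per library (red, 2 Krt6a+ pools; blue, 3 WAP+ pools) and a bar at the group mean, in panels for receptors and adaptors, the NF-kB module and outputs. Myd88 and Irak3 separate the populations in opposite directions, Nfkbia is the most abundant member in the panels, and the Krt6a+ points of Cxcl2 lie far apart.

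Of the 6 Toll-like receptors, Tlr2, Tlr4 and Tlr5 could be tested. Tlr2, which recognises bacterial lipoproteins, had FPKM 6.20 and 25.6 in Krt6a+ pools, against 3.64, 0.43 and 4.33 in WAP+ pools. It was the 1 of 3 tested receptors whose libraries did not overlap, against 17.4% of all tested genes that lay higher and 34.8% in either direction. The difference missed the threshold (limma, log2 1.99 ± 0.85 SE, adjusted p = 0.289). Tlr4, the receptor for lipopolysaccharide, had 6.75 and 0.55 in Krt6a+ pools against 2.01, 1.06 and 2.47 in WAP+ pools, so the Krt6a+ values fell on either side of all WAP+ values. Tlr5, the flagellin receptor, did the same, with 0.05 and 7.49 in Krt6a+ pools, against 3.13, 0.56 and 3.44 in WAP+ pools. Neither difference passed (limma, log2 0.27 ± 0.84 SE and -0.13 ± 0.97 SE, adjusted p = 0.912 and 0.971), and both changed sign without Krt6a+ library 2 (log2 -0.93 and 1.30). Tlr3, the receptor for double-stranded RNA, had 0.04 and 1.24 in Krt6a+ pools, against 0, 0.99 and 0 in WAP+ pools and was not tested. Tlr1 and Tlr6, which pair with Tlr2, were listed at 0 throughout, and as close paralogs next to each other on chromosome 5 their shared reads are placed with uncertainty.

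The largest log2 differences among the 37 tested members, in each direction, were those of Myd88 and Irak3. Myd88, the adaptor used by nearly all Toll-like receptors and by the interleukin-1 receptor, had FPKM 53.7 and 96.6 in Krt6a+ pools, against 10.1, 7.78 and 9.55 in WAP+ pools. Both Krt6a+ pools lay far above the WAP+ pools, which were close to one another. Scaled means were 70.2 ± 21.8 (SD, n = 2) for Krt6a+ pools against 9.45 ± 1.30 (SD, n = 3) for WAP+ pools. On the log2(scaled FPKM + 1) scale of the test, Myd88 was 6.69-fold higher in Krt6a+ cells (limma, log2 2.74 ± 0.46 SE, adjusted p = 0.0495). The deposited transcript NM_010851 lies on chromosome 9 of mm10 from 119335988 to 119340040. The adjusted p lay next to the threshold, and the call was lost without Krt6a+ library 2 or 3 (limma, adjusted p = 0.0573 and 0.0826) and without WAP+ library 1, 2 or 3 (0.138, 0.202 and 0.174), while the log2 difference stayed between 2.43 and 3.06.

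Irak3 (IRAK-M), a kinase-dead relative that restrains signalling from MyD88, differed in the other direction. It had FPKM 0.63 and 0.07 in Krt6a+ pools, with intervals reaching up to 1.00 and 0.22, against 15.1, 13.3 and 15.7 in WAP+ pools, with intervals reaching down to 13.1, 11.5 and 13.6. The populations did not overlap, yet the difference missed the threshold (limma, log2 -3.61 ± 0.61 SE, adjusted p = 0.0520). With genes at FPKM 5 or more in 2 libraries, which left 6061 genes to test, it passed (limma, adjusted p = 0.0376). Irak3 met both filters through the WAP+ pools alone, so this pass is no further support for the difference. The Irak3 transcript NM_028679 lies on chromosome 10 from 120141654 to 120201537. Irak2, another member of the same family, had 20.6 and 13.7 in Krt6a+ pools, against 10.7, 4.59 and 9.54 in WAP+ pools, without overlap (limma, log2 0.91 ± 0.57 SE, adjusted p = 0.462). The estimate placed all Irak2 signal on 1 RefSeq transcript in both Krt6a+ pools and WAP+ library 1 and on another in WAP+ pools 2 and 3, and with the highest transcript in place of the sum the log2 difference was 3.00. Irak1, which acts with Irak4 at the receptor, had 3.49 and 8.15 in Krt6a+ pools, against 14.1, 10.2 and 4.83 in WAP+ pools, which overlapped. Irak4, the first kinase of the chain, had 2.47 and 0 in Krt6a+ pools against 0, 0 and 0.10 in WAP+ pools and was too low to test.

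Traf2, an adaptor of tumour necrosis factor receptors, had FPKM 42.7 and 31.3 in Krt6a+ pools, against 12.3, 5.03 and 8.33 in WAP+ pools. Its libraries did not overlap and the difference missed the threshold (limma, log2 1.94 ± 0.52 SE, adjusted p = 0.122). Traf6, the ubiquitin ligase of the Toll-like receptor branch, was low, at 0.40 and 3.09 in Krt6a+ pools, against 0.98, 2.19 and 0.36 in WAP+ pools. Map3k7 had 7.52 and 3.45 in Krt6a+ pools, against 2.26, 1.42 and 3.40 in WAP+ pools, and Tirap, which bridges Tlr2 and Tlr4 to MyD88, had 7.96 and 1.25 against 4.69, 3.88 and 0.82. These last 3 genes did not pass (limma, adjusted p from 0.595 to 0.953). Ticam1 (TRIF), the adaptor of Tlr3, was listed at 0 in all libraries. In pools of cells, fewer cells expressing a gene and less RNA per cell cannot be told apart.

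**Figure D2:**
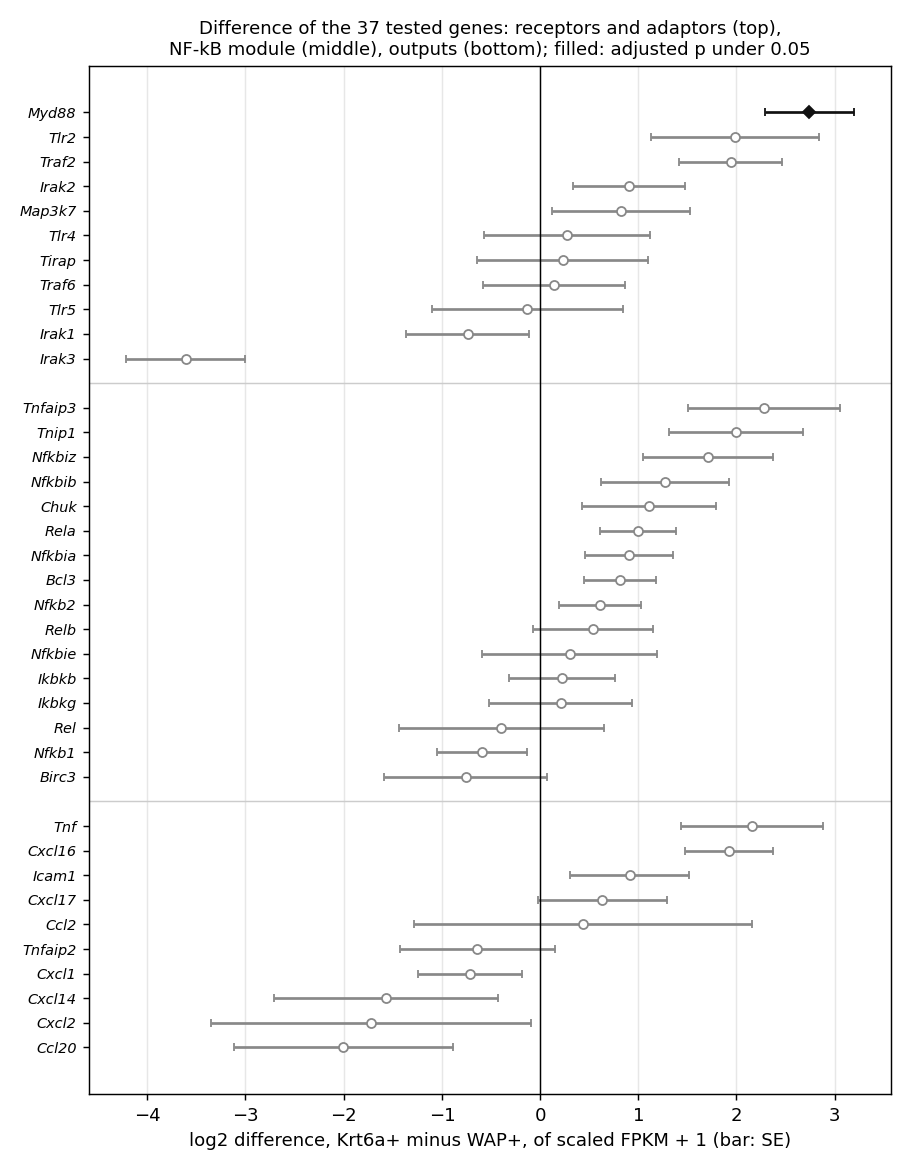
Log2 difference, Krt6a+ minus WAP+, of log2(scaled FPKM + 1) for the 37 tested genes on the horizontal axis, with the moderated SE as bars, grouped by role from top to bottom. Myd88, at 2.74, is the filled point that passed, and 13 of the 16 NF-kB module genes lie right of 0.

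In the NF-kB module no gene passed over all tested genes (limma, 0 of 16), with 4 higher and 0 lower at an unadjusted p under 0.05, against 7.66% and 9.45% of all tested genes. Of the 16 genes, 13 had a positive difference, against 49.8% of all tested genes, and in 7 the Krt6a+ pools lay above all WAP+ pools, against 17.4%. In the IKK complex, Chuk (IKK-alpha) had FPKM 5.67 and 13.7 in Krt6a+ pools, against 5.37, 1.53 and 3.88 in WAP+ pools. Ikbkb (IKK-beta), the kinase of the canonical pathway, had 11.1 and 19.1 in Krt6a+ pools against 9.52, 15.7 and 9.56 in WAP+ pools. The regulatory subunit Ikbkg (NEMO) was near the limit of detection, at 3.17 and 0.14 in Krt6a+ pools, against 1.63, 0.71 and 0.49 in WAP+ pools. None of these 3 genes passed (limma, adjusted p from 0.451 to 0.923).

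Among the DNA-binding subunits, Rela (p65), the main transactivating subunit, had FPKM 59.8 and 93.6 in Krt6a+ pools, against 40.0, 35.5 and 27.6 in WAP+ pools. The libraries did not overlap, and Rela missed the threshold (limma, log2 1.00 ± 0.39 SE, adjusted p = 0.245). Nfkb1, the p105 precursor of its partner p50, showed the opposite order, with 17.0 and 18.0 in Krt6a+ pools against 39.8, 19.1 and 19.8 in WAP+ pools, a small gap (limma, log2 -0.59 ± 0.46 SE, adjusted p = 0.556). Nfkb2, the p100 precursor of the alternative pathway, had 42.7 and 75.6 in Krt6a+ pools, against 46.2, 32.1 and 26.3 in WAP+ pools. As deposited these values overlap, and after scaling the Krt6a+ pools lay above (limma, log2 0.61 ± 0.41 SE, adjusted p = 0.489). Relb, the partner of Nfkb2, had 18.4 and 59.2 in Krt6a+ pools, against 15.6, 32.5 and 17.2 in WAP+ pools. Rel (c-Rel), best known from lymphoid cells, was listed at 0 in Krt6a+ library 2 and had 12.3 in library 3, against 5.17, 2.02 and 3.67 in WAP+ pools. Relb and Rel overlapped between populations and did not pass (limma, adjusted p = 0.703 and 0.895).

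The IkB proteins, which hold or modulate NF-kB, included the most abundant member. Nfkbia had FPKM 712 and 1834 in Krt6a+ pools, against 911, 456 and 425 in WAP+ pools. The high value stood in Krt6a+ library 3, and library 2 lay below WAP+ library 1, so the populations overlapped (limma, log2 0.90 ± 0.45 SE, adjusted p = 0.352). Bcl3, an atypical IkB protein that acts with p50 and p52 in the nucleus, had 141 and 216 in Krt6a+ pools, against 111, 70.9 and 95.8 in WAP+ pools, without overlap (limma, log2 0.81 ± 0.36 SE, adjusted p = 0.309). Nfkbiz (IkB-zeta), a nuclear co-activator of a subset of NF-kB targets, had 24.8 and 109.9 in Krt6a+ pools, against 26.6, 12.1 and 8.60 in WAP+ pools. As deposited these values overlap, after scaling the Krt6a+ pools lay above, and the high value stood in library 3 (limma, log2 1.71 ± 0.66 SE, adjusted p = 0.239), with a log2 difference of 0.76 without it and of 2.66 without library 2. Nfkbib and Nfkbie, further cytoplasmic inhibitors, had 19.9 and 42.8, and 2.74 and 30.0, in Krt6a+ pools, against 12.9, 19.4 and 4.48, and 13.4, 3.89 and 6.55, in WAP+ pools. Both overlapped between populations and did not pass (limma, adjusted p = 0.366 and 0.908).

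The feedback regulators of the pathway were uneven. Tnfaip3 (A20), a ubiquitin-editing enzyme that shuts the pathway off, had FPKM 19.1 and 60.7 in Krt6a+ pools, against 15.6, 5.50 and 1.87 in WAP+ pools. Its partner Tnip1 (ABIN-1) had 72.6 and 20.9 in Krt6a+ pools, against 10.8, 11.1 and 4.75 in WAP+ pools. In both genes the Krt6a+ pools lay above all WAP+ pools, with the higher value in library 3 for Tnfaip3 and in library 2 for Tnip1, and neither passed (limma, log2 2.28 ± 0.77 SE and 2.00 ± 0.68 SE, adjusted p = 0.188 and 0.189). Birc3 (cIAP2), a ubiquitin ligase of the tumour necrosis factor receptor complex, had 2.00 and 23.7 in Krt6a+ pools against 14.6, 9.85 and 13.2 in WAP+ pools, where the Krt6a+ values fell on either side.

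**Figure D3:**
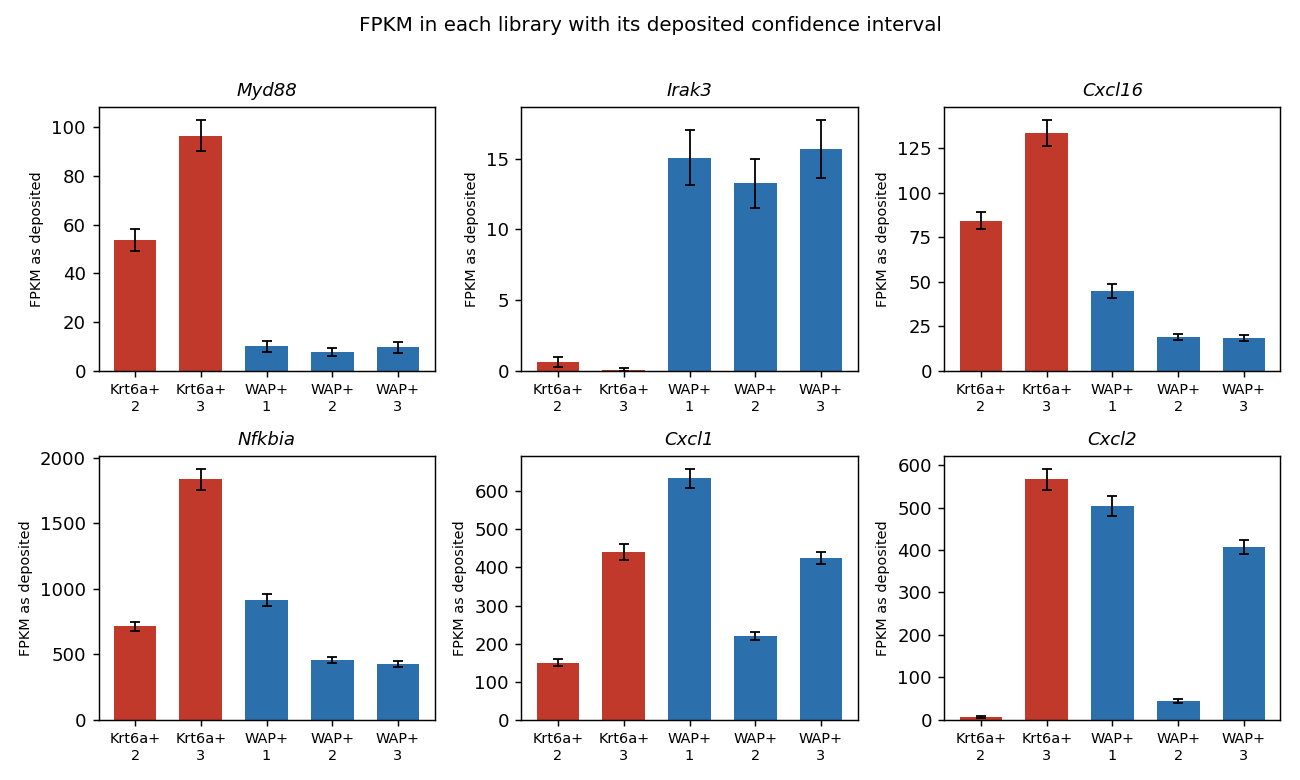
FPKM as deposited for Myd88, Irak3, Cxcl16, Nfkbia, Cxcl1 and Cxcl2 on the vertical axis in each of the 5 libraries (red, Krt6a+; blue, WAP+), with the deposited confidence interval as the error bar. The intervals of Cxcl2 do not overlap between libraries of a population, and it has 7.46 and 566 FPKM in the Krt6a+ pools and 503, 44.1 and 407 in the WAP+ pools.

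No output passed over all tested genes (limma, 0 of 10), with 2 higher, Cxcl16 and Tnf, and 0 lower at an unadjusted p under 0.05, against 7.66% and 9.45% of all tested genes. Cxcl1 and Cxcl2, neutrophil attractants that bind Cxcr2, were the most abundant chemokines. Cxcl1 had FPKM 150.1 and 441 in Krt6a+ pools, against 635, 221 and 424 in WAP+ pools (limma, log2 -0.72 ± 0.53 SE, adjusted p = 0.529). Cxcl2 had 7.46 and 566 in Krt6a+ pools, against 503, 44.1 and 407 in WAP+ pools (limma, log2 -1.72 ± 1.63 SE, adjusted p = 0.642). For both genes, the promoters of which share the run shown above, Krt6a+ library 2 was lowest and WAP+ library 2 next. The sign of the Cxcl2 difference turned on a single library, at log2 -4.64 without Krt6a+ library 3 and 1.22 without library 2. Cxcl1, Cxcl2 and Cxcl3 are close paralogs near one another on chromosome 5, so the split of shared reads between them is uncertain. Cxcl3 was listed at 0 in both Krt6a+ pools and had 0.24, 2.73 and 0 in WAP+ pools, and Cxcl5, another attractant of this type, was listed at 0 in both Krt6a+ pools and had 0.19, 1.56 and 0.

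Cxcl16, a membrane-bound chemokine that is also a scavenger receptor, had FPKM 84.4 and 133.9 in Krt6a+ pools, against 44.8, 18.9 and 18.5 in WAP+ pools. It was the 1 of 7 tested chemokines whose libraries did not overlap, against 17.4% of all tested genes that lay higher and 34.8% in either direction. Scaled means of Cxcl16 were 102 ± 23.1 (SD, n = 2) for Krt6a+ pools against 27.1 ± 10.6 (SD, n = 3) for WAP+ pools, and it missed the threshold (limma, log2 1.92 ± 0.45 SE, adjusted p = 0.0949). Across the 14 other settings and left-out libraries its log2 difference ran from 1.70 to 2.21, with no call. Cxcl17, a chemokine of mucosal epithelia, had 22.3 and 115 in Krt6a+ pools, against 30.7, 21.6 and 39.9 in WAP+ pools. Cxcl14, a chemokine made by many epithelia, had 0.33 and 11.9 in Krt6a+ pools against 20.2, 2.30 and 20.0 in WAP+ pools. Both overlapped between populations (limma, adjusted p = 0.674 and 0.519).

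Of the CC chemokines, Ccl2, which attracts monocytes, had FPKM 39.7 and 0 in Krt6a+ pools, against 24.7, 0 and 3.29 in WAP+ pools, with no separation. Ccl20, the ligand of Ccr6, was listed at 0 in both Krt6a+ pools and had 19.0, 2.41 and 0 in WAP+ pools (limma, log2 -2.00 ± 1.12 SE, adjusted p = 0.407). Ccl28, a chemokine of the lactating mammary gland that attracts antibody-secreting cells, had 0 and 0.15 in Krt6a+ pools against 0, 0 and 1.34 in WAP+ pools and was too low to test. Cxcl10 and Cxcl15 were listed at 0 in all libraries.

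Among the other outputs, Tnf, which both activates NF-kB and is made in response to it, had FPKM 26.6 and 84.0 in Krt6a+ pools, against 22.7, 3.63 and 8.28 in WAP+ pools. The libraries did not overlap, although the lowest Krt6a+ value was close to that of WAP+ library 1 (limma, log2 2.16 ± 0.73 SE, adjusted p = 0.187). Icam1, an adhesion molecule that binds leukocyte integrins, had 53.4 and 77.6 in Krt6a+ pools, against 68.0, 13.1 and 32.9 in WAP+ pools, which overlapped (limma, log2 0.91 ± 0.60 SE, adjusted p = 0.478). Tnfaip2, a gene induced by tumour necrosis factor, had 185 and 28.0 in Krt6a+ pools, against 79.4, 132 and 108 in WAP+ pools. The Krt6a+ values of Tnfaip2 fell on either side of all WAP+ values (limma, log2 -0.64 ± 0.79 SE, adjusted p = 0.730), with a log2 difference of 0.81 without Krt6a+ library 3. In 8 members, Tlr3, Tlr4, Tlr5, Ikbkg, Nfkbie, Birc3, Cxcl2 and Cxcl14, the 2 Krt6a+ pools were above 0 and over 10-fold apart.

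Genes around the Toll-like receptors were compared from a wider list of 25, of which 14 were tested. Of these, 0 were called higher and 1 lower (limma), against 0.258% and 0.434% of all tested genes. The median log2 difference was -0.28. The gene called was Cd14, the co-receptor that hands lipopolysaccharide to Tlr4, with FPKM 47.1 and 42.2 in Krt6a+ pools, against 306, 391.7 and 361 in WAP+ pools. Scaled means of Cd14 were 42.8 ± 7.51 (SD, n = 2) in Krt6a+ cells against 371 ± 89.4 (SD, n = 3) in WAP+ cells. On the log2(scaled FPKM + 1) scale Cd14 was 8.38-fold lower in Krt6a+ cells (limma, log2 -3.07 ± 0.38 SE, adjusted p = 0.0275), and leaving out WAP+ library 1, 2 or 3 ended the call (limma, adjusted p = 0.0901, 0.170 and 0.147), as did testing with no filter on low values (0.116) or no mean-variance trend (0.0747). Lbp, which delivers lipopolysaccharide to Cd14, had 0 and 4.05 in Krt6a+ pools against 33.8, 21.4 and 10.5 in WAP+ pools, and Tollip, an inhibitor of the pathway, had 26.3 and 35.4 against 6.92, 12.6 and 6.999, and neither passed (limma, adjusted p = 0.0982 and 0.176). Ly96 (MD-2), the subunit of the Tlr4 complex that binds lipopolysaccharide, named here after its values were seen, had 14.0 and 54.1 in Krt6a+ pools, against 105, 57.9 and 45.9 in WAP+ pools.

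A list of 30 further NF-kB regulators had 25 tested genes, 0 called in either direction (limma) and a median log2 difference of 0.41. At an unadjusted p under 0.05, 2 were higher and 1 lower (limma), against 7.66% and 9.45% of all tested genes. Ripk2, the kinase below the NOD receptors, had FPKM 32.0 and 8.49 in Krt6a+ pools, against 2.91, 0.64 and 1.00 in WAP+ pools. Malt1, a paracaspase that activates NF-kB, had 4.91 and 11.03 in Krt6a+ pools, against 0.11, 0.67 and 0 in WAP+ pools. Birc2 (cIAP1) showed the opposite order, with 0.75 and 0 in Krt6a+ pools against 3.83, 4.70 and 8.32 in WAP+ pools. These 3 genes did not pass (limma, adjusted p = 0.128, 0.101 and 0.159). Malt1 met the filter only with the Krt6a+ pools and Birc2 only with the WAP+ pools.

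The interferon branch, which runs from Tlr3 and Tlr4 through TRIF, had 14 of 23 genes tested, 0 called (limma) and a median log2 difference of 0.61. At an unadjusted p under 0.05, 3 were higher and 2 lower (limma), against 7.66% and 9.45% of all tested genes. Irf1, a transcription factor induced by NF-kB and interferon, had FPKM 116 and 309.6 in Krt6a+ pools, against 42.2, 12.0 and 7.92 in WAP+ pools (limma, adjusted p = 0.0607). Tbk1, the kinase that activates Irf3, had 20.3 and 14.6 in Krt6a+ pools, against 1.53, 2.89 and 3.40 in WAP+ pools (limma, adjusted p = 0.133). Isg15, a ubiquitin-like protein induced by interferon, had 0.95 and 0 in Krt6a+ pools against 9.33, 12.2 and 9.62 in WAP+ pools (limma, adjusted p = 0.0783). Of the 14 tested genes of this branch, 8 lay higher and 3 lower in both Krt6a+ pools than in any WAP+ pool, against 17.4% of all tested genes in each direction. The 3 lower genes, Isg15, Irf7 and Ikbke, met the filter only with the WAP+ pools. Irf5, among the 8 higher, met it only with the Krt6a+ pools, so the filter partly sets these counts. Ifnb1, interferon beta, and Mx1 were listed at 0 throughout.

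Other known NF-kB targets had 13 of 20 genes tested and a median log2 difference of -1.01. Of these, 0 were called higher and 1 lower (limma), against 0.258% and 0.434% of all tested genes. The gene called was Csf3, the granulocyte growth factor, with FPKM 0.37 and 1.30 in Krt6a+ pools, against 254, 193 and 262 in WAP+ pools (limma, log2 -7.14 ± 0.44 SE, adjusted p = 0.000573). Csf3 was also called without each WAP+ library in turn. It met the filter only with the WAP+ pools, where it was high, so these calls are no further support for the difference. Csf1, the macrophage growth factor, had 1.82 and 0.88 in Krt6a+ pools against 13.5, 11.1 and 11.1 in WAP+ pools, and the cytokine Lif had 0.04 and 0.51 against 4.38, 2.70 and 1.85, and neither passed (limma, adjusted p = 0.0932 and 0.216). Of the 13 tested targets 5 had a positive and 8 a negative difference, against 49.8% and 50.2% of all tested genes. Without overlap 1 lay higher, Il23a, and 6 lay lower, against 17.4% of all tested genes in each direction. Of these 6, Csf3, Csf1, Lif and Vcam1 met the filter only with the WAP+ pools, so the filter partly sets this count. Il23a, a subunit of interleukin 23 named here after its values were seen, had FPKM 23.6 and 23.9 in Krt6a+ pools against 7.25, 0 and 11.04 in WAP+ pools (limma, adjusted p = 0.309). Of 21 further chemokines 6 were tested and 0 called (limma), with a median log2 difference of 0.12. At an unadjusted p under 0.05, 0 were higher and 1 lower (limma), against 7.66% and 9.45% of all tested genes. Ccl5, which attracts T cells, had 4.42 and 5.91 in Krt6a+ pools against 25.4, 16.9 and 14.3 in WAP+ pools, Ccl9 0.39 and 0 against 0, 3.43 and 1.27, and Ccl11 16.2 and 0 against 3.27, 0 and 0. Higher values, named here after they were seen, stood in single pools. Ccl8 and Ccl17 had 73.8 and 23.8 in Krt6a+ library 2, were listed at 0 elsewhere and were not tested. Ccl7 had 28.0 and 10.5 in Krt6a+ pools against 0, 0 and 86.9 in WAP+ pools. Of 19 chemokine receptors 11 were listed at 0 in all libraries and 1 was tested, Ackr3, a scavenging receptor, with 11.1 and 12.7 in Krt6a+ pools, against 13.0, 0.57 and 4.84 in WAP+ pools (limma, adjusted p = 0.502). Cxcr2, the receptor of Cxcl1 and Cxcl2 on neutrophils, was listed at 0 in both Krt6a+ pools and had 0.18, 0.62 and 0 in WAP+ pools.

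Many of these genes are also made by leukocytes and by cells stressed during tissue dissociation, so markers of both were measured beside them. Of 7 general leukocyte genes 6 were listed at 0 in every library, Ptprc among them, and the list summed to scaled FPKM 0 in both Krt6a+ pools and 0 to 0.13 in WAP+ pools. Because an exact 0 can be a failed estimate, as for Eno1, Rpl10 and Rpl11, these zeros do not show that leukocytes were absent. Of 10 macrophage genes 6 were listed at 0 in all libraries, namely Adgre1, C1qa, C1qc, Fcer1g, Itgam and Lyz2. The list summed to 15.7 and 18.6 in Krt6a+ and 11.2 to 31.3 in WAP+ pools. It was carried by Cd68 and, in the Krt6a+ pools, C1qb (FPKM 8.00 and 2.43, listed at 0 in WAP+ pools), without C1qa or C1qc. Of 8 neutrophil genes in the files 6 were at 0 throughout, Mpo and Elane among them, and the sum of 429 and 284 in Krt6a+ and 49.7 to 103 in WAP+ pools was nearly all Ltf, which mammary epithelium also makes. T cell genes (5 in the files, 4 at 0 in all libraries) summed to 0.21 and 4.41 in Krt6a+ pools, against 0 in WAP+ pools, and B cell genes (3 of 4 at 0) to 0 and 3.18 against 0.

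Fibroblast genes summed to scaled FPKM 58.7 and 186 in Krt6a+ and 9.46 to 96.4 in WAP+ pools, mostly Dcn. Dcn alone had FPKM 49.4 and 210 in Krt6a+ pools, against 16.3, 8.60 and 67.0 in WAP+ pools. Col1a1, Col1a2 and Col3a1 were listed at 0 in Krt6a+ library 3, with log2 differences of 0.28, 0.02 and -0.32 (limma). Endothelial genes summed to 0.09 and 0.66 against 0.04 to 20.7. The adipocyte gene Fabp4 was listed at 0 in Krt6a+ pools and had FPKM 2188, 65.8 and 20.3 in WAP+ pools, while Adipoq and Plin1 were at 0 throughout. Epithelial genes summed to 4274 and 5949 in Krt6a+ and 8858 to 10218 in WAP+ pools, with Krt14 at FPKM 2284 and 2263 against 936, 130.5 and 862 and Krt18 at 353 and 1283 against 4018, 3335 and 3534. Of the 8 epithelial genes, all tested, 1 was called higher, Krt5, a basal keratin, and 0 lower (limma), against 0.258% and 0.434% of all tested genes. Krt5 had FPKM of 434 and 374 for Krt6a+ pools against 22.4, 13.4 and 34.7 for WAP+ pools (limma, log2 4.02 ± 0.49 SE, adjusted p = 0.0275), and the call was kept in 8 of the 14 alternatives, with adjusted p of 0.133, 0.150 and 0.0557 without WAP+ library 1, 2 or 3. Krt8, a luminal keratin, had 66.2 and 719 for Krt6a+ pools against 1664, 1917 and 1681 for WAP+ pools, without overlap (limma, adjusted p = 0.117). Of 14 genes of the dissociation response, all tested, 1 was called higher and 0 lower (limma), against 0.258% and 0.434% of all tested genes. Their median log2 difference was 0.36. They summed to 2409 and 5572 in Krt6a+ pools, against 2365 to 3122 in WAP+ pools, with Hspb1 alone at FPKM 557 and 2236 in Krt6a+ pools. Krt6a+ library 3 was highest in this sum. Of the members named by rule, Tlr2, Tlr5, Myd88, Rela, Nfkb2, Nfkbia, Bcl3, Nfkbiz and Tnfaip3 were highest in that library. So were Cxcl2, Cxcl16, Tnf and Icam1. Tlr4, Tnip1, Tnfaip2, Traf2 and Irak2 were highest in Krt6a+ library 2, Cxcl1 and Ccl20 in WAP+ library 1, and Irak3 in WAP+ library 3. Hspa1a, an inducible chaperone, had FPKM 66.6 and 146 in Krt6a+ pools, against 7.75, 10.04 and 10.05 in WAP+ pools (limma, log2 3.17 ± 0.50 SE, adjusted p = 0.0448), a call lost without Krt6a+ library 3 (adjusted p = 0.0679) and without WAP+ library 1, 2 or 3 (0.138, 0.202 and 0.167), and kept in 5 of the 14 alternatives. Hspa1b, its near-identical copy, had 51.9 and 204 in Krt6a+ pools against 13.6, 20.1 and 35.5 in WAP+ pools, and the growth-arrest gene Btg2 had 66.4 and 283 against 55.2, 28.7 and 30.6 (limma, adjusted p = 0.172 and 0.176). The part of stress during dissociation, of the number of stromal cells, or of the mix of basal and luminal cells, in the differences of the module was not tested.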

How the data were processed

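RNA-seq was made from 2 Krt6a+ and 3 WAP+ pools of sorted cells; cDNA was amplified with the SMART-Seq v4 kit and libraries were made with Nextera, per the labels' protocols. The kit does not mark strand, so a gene and an overlapping antisense gene share their reads. TopHat, Cufflinks and mm10 are named in the submitters' processing notes; no versions of them are given in these sources. The deposited FPKM values, with a lower and an upper bound, cover 34535 RefSeq transcripts per the file headers and had been divided by the authors by transcript length and mapped fragments. Where intervals implied at most 200 fragments, 24.2% to 26.4% of values lay within 0.02 of a whole fragment, so whole reads could not be had and count models were not used. Intervals cover counting error only.

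FPKM was summed per symbol and divided by a factor per library (median ratio over 5334 genes that reach FPKM 1 in every library; 0.980 and 1.13 for Krt6a+, 1.14, 0.909 and 0.873 for WAP+). Genes at FPKM 1 or more in at least 2 libraries were tested on log2(scaled FPKM + 1) with limma 3.58.1 in R 4.3.3 (mean-variance trend, two-sided, Benjamini-Hochberg over 9682 genes, threshold 0.05). The procedure was tested on simulated data. The members, gene lists and tests were chosen with earlier results of these data known. Named with values in each library, by rule, were members past the threshold, all Toll-like receptors and, per role, the 4 most abundant and the 4 with the largest moderated statistic; further members were added to show the rest. From each pathway list up to 3 genes, and from each marker list up to 2, were named by rule; any others from a list were picked with values in view. Lists covered other Toll-like receptor, NF-kB, interferon, target, chemokine and chemokine receptor genes, the dissociation response, and markers of epithelial, leukocyte, macrophage, neutrophil, T, B, endothelial, fibroblast and adipocyte cells. Alternatives changed the pseudocount, the filter, the scaling, the transcript summary, the variance trend, a replicate block and each library in turn.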

Additional observations from a re-analysis of the deposited data

How the results depend on the processing

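In Krt6a+ pools 25 genes of all tested were called higher and 42 lower than in WAP+ pools, and these counts moved with the processing. The higher and lower genes numbered 6 and 20 at pseudocount 0.1, 41 and 31 at pseudocount 5, 2 and 3 with no filter, 71 and 92 with genes at FPKM 5 or more in 2 libraries, 23 and 27 with no scaling, 39 and 39 with quantile normalization, 8 and 16 with the highest transcript per symbol, 7 and 9 with no mean-variance trend, and 2 to 44 and 3 to 103 without each library in turn. Members called higher, 1 in the text, numbered 0 with a pseudocount of 0.1, no filter, no scaling, the highest transcript or no trend, and 0 to 0 without each library. Members called lower, 0 in the text, numbered 1 with the stricter filter (Irak3, which met that filter through the WAP+ pools alone). The median difference of receptors and adaptors was 1.42 with the stricter filter, which leaves fewer genes, and 0.44 to 1.29 without each library; that of the NF-kB module was 0.47 to 1.26 and that of outputs -0.46 to 0.54 without each library. Removing 1 of 2 Krt6a+ libraries leaves a lone pool that is assumed to vary like the WAP+ pools.

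The sign of Tlr5 reversed with a pseudocount of 5 (log2 0.0714), quantile normalization (0.0318) and the replicate block (0.0059), and without Krt6a+ replicate 2 (1.30), WAP+ replicate 1 (0.0034) or WAP+ replicate 3 (0.19). Without Krt6a+ replicate 2 it reversed for Cxcl2 (1.22) and Tlr4 (-0.93), and without Krt6a+ replicate 3 for Tnfaip2 (0.81); without each library the ranges were -1.53 to 1.30 for Tlr5, -4.64 to 1.22 for Cxcl2, -0.93 to 1.47 for Tlr4 and -2.07 to 0.81 for Tnfaip2; the cause was not tested. The call of Myd88 was kept in 3 of 14 alternatives (a pseudocount of 5, the stricter filter and quantile normalization), with log2 differences from 2.35 to 3.06. Krt6a+ and WAP+ libraries share the numbers 2 and 3, which were not taken as pairs. Deviations of same-numbered libraries from their group means correlated at 0.05 and 0.0003, and those of Krt6a+ library 3 and WAP+ library 1 at 0.05. With 2 Krt6a+ libraries the deviations mirror each other, so these values can neither show nor exclude pairs. With a replicate block 15 genes were higher and 19 lower, and 0 members were called. The calls of Cd14, Hspa1a and Krt5 were kept in 9, 5 and 8 of the 14 alternatives; that of Hspa1a was lost at pseudocount 0.1 (adjusted p = 0.0714), with no filter (0.158), with the highest transcript (0.0683), with no trend (0.0776) and with the replicate block (0.0977), and that of Krt5 with no filter (0.116), no trend (0.0553) and the replicate block (0.0614).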
